A study of Mus musculus with 3 samples.

Results

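Marker genes of blood vessel endothelium and of macrophages were followed across 3 genotypes of fetal mouse testis. The members were 36 gene symbols chosen by name, 20 for vascular endothelium and 16 for macrophages and other myeloid cells, and every array probe annotated to 1 of them was taken. All 20 vascular genes had a probe, and 15 of the 16 myeloid genes did. Cd68, a lysosomal glycoprotein of macrophages, had no probe annotated to its symbol and was not analysed here. The 35 measured members were represented by 60 probes, 34 vascular and 26 myeloid, out of 19532 named genes on 41174 array probes. The choice of members followed no rule on measured values, but it was made with earlier results of these data known. Both cell types had been looked at before in these data.

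RNA came from whole male gonads at stage E14.5 and was hybridised in a single colour to Agilent arrays. The control group was heterozygous for both targeted genes (Nanos2+/- Stra8+/-), so no wild-type gonad was compared. The second group lacked Nanos2, an RNA-binding protein of fetal male germ cells, and was heterozygous for Stra8, the retinoic acid-induced factor of meiotic entry (Nanos2-/- Stra8+/-). The third was labelled as lacking both (Nanos2-/- Stra8-/-). Each group had 1 column of values, whose title names replicates 1 and 2, so that 2 arrays may have been combined. No difference below therefore has a replicate check, no test was possible, and the precision is bounded by how few arrays there were. The labels do not state how the alleles were made or how many animals gave RNA to each column.

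The deposited values are ratios in which most probes lie close to 1, by a divisor that neither the labels nor the processing notes state. For 45 of the 60 member probes the middle of the 3 column values lay within 10% of 1. A value therefore compares the columns for 1 probe and says nothing of how strongly the gene is expressed, so whether endothelial cells and macrophages were present in the tissue could not be read from these markers. A further 11 member probes (18.3%) lay below 0.7 in every column, as did 18.3% of all array probes, and whether they measured above background is not known. Column medians over all probes were 0.941 in the control, 0.975 in Nanos2-/- Stra8+/- and 0.999 in the column labelled Nanos2-/- Stra8-/-. The Nanos2 probe lay at 87.2 in the control column, 0.364 in Nanos2-/- Stra8+/- and 0.397 in the column labelled Nanos2-/- Stra8-/-. The Stra8 probe lay at 0.108, 1.13 and 1.34 in the same order. Where this probe lies relative to the deletion is not stated, so it does not check the label of the third column.

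Endothelial cells line the vessels and are held together by cadherin and claudin junctions. VEGF and angiopoietin ligands act on them through receptor tyrosine kinases. In the fetal mouse testis, endothelial cells that migrate in from the mesonephros build the coelomic vessel and take part in the partitioning of the testis cords. Macrophages of the fetal gonad depend on signalling through the CSF1 receptor, sit close to the forming vessels and clear dying cells, for which complement C1q and scavenger receptors serve as recognition molecules. Neither cell type is a germ cell, so its markers offer a gauge of the somatic part of the tissue. In whole tissue, fewer cells of a type and less RNA per cell cannot be told apart.

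The medians of both sets lay within 0.25 of 0 in all 3 comparisons. Differences are given on the log2 scale, and a gene's difference is the median over its probes. With Nanos2 loss (Nanos2-/- Stra8+/- minus control) the median difference was -0.00013 for the 20 vascular genes and 0.14 for the 15 myeloid genes, beside 0.04 for all genes. In combined loss (the column labelled Nanos2-/- Stra8-/- minus control) the medians were -0.0063 and 0.15, beside 0.19 for all genes. With Stra8 loss on the Nanos2-null background (the column labelled Nanos2-/- Stra8-/- minus Nanos2-/- Stra8+/-) they were 0.04 and 0.07, beside 0.17 for all genes. The control column enters the first and second comparisons, and each null column also enters 2, so the comparisons are not independent of one another. Relative to the median of all genes, the vascular set lay at -0.04, -0.19 and -0.12 in that order, and the myeloid set at 0.10, -0.04 and -0.09.

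**Figure D1:**
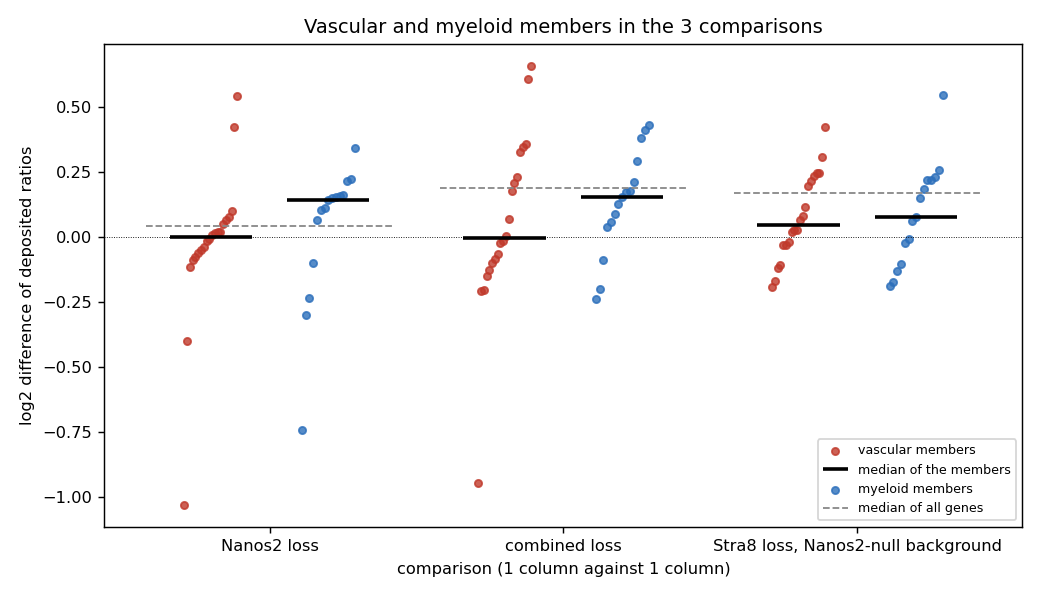
Each point is 1 member gene, plotted by its log2 difference of deposited ratios (vertical axis) in the 3 comparisons, vascular in red and myeloid in blue, with black bars at the medians and dashed lines at the median of all genes. Most points lie within 0.25 of 0, with Vwf lowest at -1.03 and -0.95 in the comparisons that contain the control column.

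The vascular median lay below the myeloid median by 0.14 with Nanos2 loss, by 0.16 in combined loss and by 0.03 with Stra8 loss on the Nanos2-null background. Centring a column shifts both sets alike and leaves this gap as it is. The interquartile range of the vascular genes ran from -0.07 to 0.05 with Nanos2 loss and overlapped that of the myeloid genes, from -0.02 to 0.16. In combined loss the corresponding ranges were -0.11 to 0.25 and 0.05 to 0.25.

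With Nanos2 loss, 2 of 35 members were at least 1.5-fold lower and 0 were higher by that much. Over all genes, 6.79% were lower and 5.7% higher by this measure, so the members' share of 5.71% lower is near the background. Vwf was also at least 2-fold lower, beside 3.16% of all genes, and none of the members was at least 2-fold higher, beside 2.35% of all genes. In combined loss 2 members were higher and 1 was lower by 1.5-fold or more, beside 12.5% and 6.28% of all genes. None passed 2-fold in that comparison, where 4.24% of all genes were higher and 2.82% lower by that much. With Stra8 loss on the Nanos2-null background 0 of 35 members passed 1.5-fold, beside 6.67% of all genes higher and 2.82% lower. The members within 0.25 of 0 numbered 28 with Nanos2 loss, 25 in combined loss and 31 with Stra8 loss on the Nanos2-null background. Of all 19532 genes, 13228, 8118 and 10635 lay within 0.25 of 0 in the same order.

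**Figure D2:**
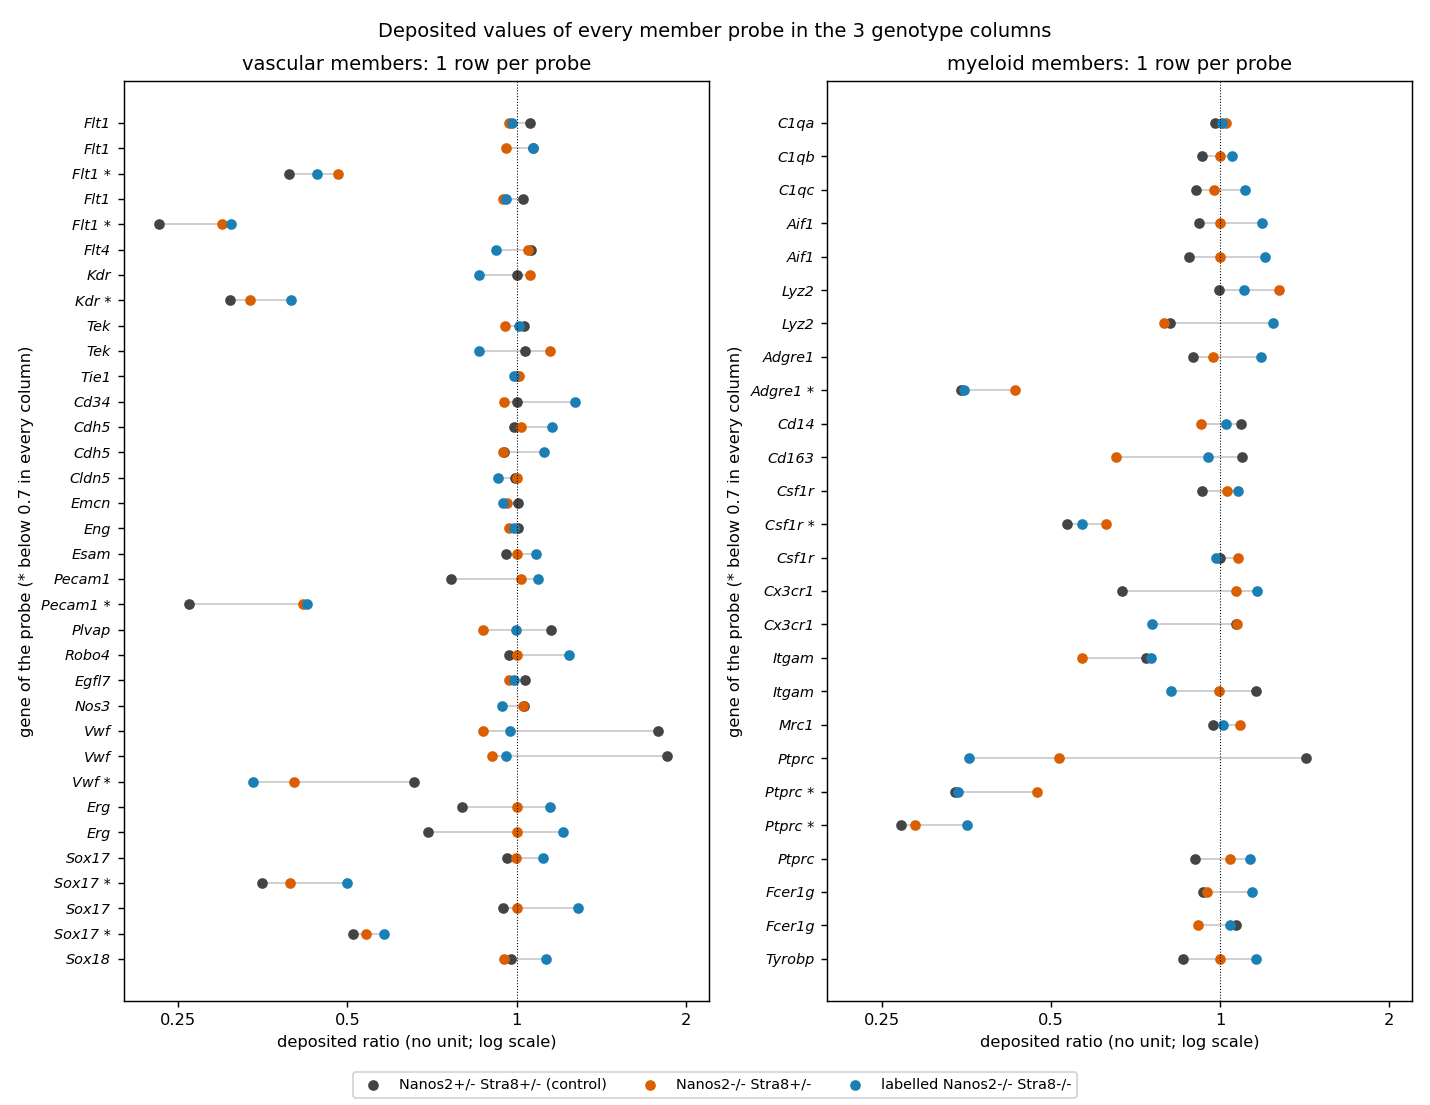
Deposited ratios (horizontal axis, log scale, no unit) of all 60 member probes, 1 row per probe, in the control column (grey), Nanos2-/- Stra8+/- (orange) and the column labelled Nanos2-/- Stra8-/- (blue). Asterisks mark the 11 probes below 0.7 in every column, and the widest rows are those of Vwf and 1 of the 4 probes of Ptprc.

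Receptors for VEGF and angiopoietin kept close to 0. Tie1, an orphan receptor that modulates TIE2 signalling, was at 1.0 in the control column, 1.01 in Nanos2-/- Stra8+/- and 0.990 in the column labelled Nanos2-/- Stra8-/-. Its values thus spanned about 2% over the 3 genotypes. Flt4, the VEGFR-3 receptor for VEGF-C found on lymphatic and sprouting endothelium, was at 1.06, 1.05 and 0.918 in the same order. The first and second columns were alike for Flt4 and the third was lowest.

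Kdr, the VEGFR-2 receptor that carries most VEGF signalling in endothelium, had a probe at 1.0, 1.06 and 0.856 and another below 0.7 throughout, at 0.309, 0.336 and 0.397. The pair of Kdr probes put the column labelled Nanos2-/- Stra8-/- at opposite ends, with log2 differences from the control of -0.22 and 0.36. Flt1, the VEGFR-1 receptor that binds VEGF and holds back its signalling, had 5 probes. Its 3 probes near 1 differed by -0.13, -0.16 and -0.12 with Nanos2 loss, and its 2 probes below 0.7 by 0.29 and 0.37. Tek, which encodes the angiopoietin receptor TIE2, had 2 probes with differences of -0.11 and 0.15 with Nanos2 loss and of -0.03 and -0.27 in combined loss. In combined loss all 5 receptor genes lay below the median of all genes, with a median of -0.01 that is 0.20 below it. For Kdr and Flt1 the sign in combined loss turned with the scaling of the columns.

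The ligands of these receptors, and of CSF1R, formed a separate list of 10 measured genes. Their median was 0.02 with Nanos2 loss and 0.23 in combined loss, beside 0.04 and 0.19 for all genes. None passed 1.5-fold in either, where 5.7% and 12.5% of all genes were higher by that much and 6.79% and 6.28% lower. Angpt1, the agonist of TIE2, had a median over its 2 probes of 1.02 in the control, 1.07 in Nanos2-/- Stra8+/- and 0.770 in the column labelled Nanos2-/- Stra8-/-. Angpt2, a context-dependent antagonist of the same receptor, went the other way at 0.977, 0.837 and 1.29. With Stra8 loss on the Nanos2-null background Angpt2 was 1.54-fold higher by its single probe and Angpt1 1.41-fold lower. Il34, the other ligand of CSF1R, had a log2 difference of 0.35 with Nanos2 loss.

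The start regions of Tie1 and Flt1, whose medians over probes differed little, are shown. Beside them are that of Erg, the vascular transcription factor with the highest difference from the control, and those of C1qb and C1qc. C1qb and C1qc are neighbouring myeloid genes with like differences under Nanos2 loss. ETS factors, to which ERG, FLI1 and the myeloid PU.1 belong, bind DNA around a GGAA core. The letters AGGAAG, which contain this core, were searched on both strands of the 250 bases before each start in RefSeq's promoter table for GRCm38.p6, and matches are in capitals (CTTCCT is the same motif on the opposite strand). The table matched 12 vascular and 11 myeloid members, some with several starts. The motif was present in 9 of 16 vascular and 8 of 12 myeloid start regions, and in 29.5% of all 32851. These counts are of regions and not of genes. The regions of Ptprc overlap and share a match, and Cd68, which had no probe, is among the myeloid ones. A match is a run of letters and not evidence of binding. All 5 regions lie on the minus strand, at chr4:118489850-118490099 for Tie1, chr5:147726012-147726261 for Flt1, chr16:95459349-95459598 for 1 of the 3 starts of Erg, chr4:136886201-136886450 for C1qb and chr4:136892915-136893164 for C1qc.
Tie1: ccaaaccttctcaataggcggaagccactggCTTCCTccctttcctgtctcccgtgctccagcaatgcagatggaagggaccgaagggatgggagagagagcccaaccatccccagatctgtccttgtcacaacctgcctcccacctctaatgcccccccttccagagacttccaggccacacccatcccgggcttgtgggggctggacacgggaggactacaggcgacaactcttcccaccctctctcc
Flt1: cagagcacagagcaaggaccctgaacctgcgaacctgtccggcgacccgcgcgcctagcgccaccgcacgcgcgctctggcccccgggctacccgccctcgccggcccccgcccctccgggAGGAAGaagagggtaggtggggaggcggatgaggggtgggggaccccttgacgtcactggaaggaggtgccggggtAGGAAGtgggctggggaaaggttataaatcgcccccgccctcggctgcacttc
Erg: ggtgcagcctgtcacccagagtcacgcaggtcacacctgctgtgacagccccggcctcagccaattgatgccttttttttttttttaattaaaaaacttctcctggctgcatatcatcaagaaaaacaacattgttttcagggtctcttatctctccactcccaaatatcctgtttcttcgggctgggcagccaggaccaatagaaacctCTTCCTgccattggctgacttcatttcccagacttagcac
C1qb: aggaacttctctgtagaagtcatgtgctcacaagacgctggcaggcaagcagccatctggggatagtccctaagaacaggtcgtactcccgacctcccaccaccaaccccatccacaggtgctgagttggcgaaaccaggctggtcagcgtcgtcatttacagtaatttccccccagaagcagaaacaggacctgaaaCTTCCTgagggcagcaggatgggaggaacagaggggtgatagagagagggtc
C1qc: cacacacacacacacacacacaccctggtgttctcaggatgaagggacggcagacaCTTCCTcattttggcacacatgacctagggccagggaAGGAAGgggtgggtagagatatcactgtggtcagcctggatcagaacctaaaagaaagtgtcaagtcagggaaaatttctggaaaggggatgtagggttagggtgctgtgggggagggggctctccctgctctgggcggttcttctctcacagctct
Flt1 and C1qc each hold the motif 2 times and the other regions shown hold it 1 time. The other 2 starts of Erg held no match in their 250 bases, and neither did the start regions of the receptors Kdr, Flt4 and Tek. Over all members 17 of 28 start regions held the motif, so the regions shown do not stand for the rest.

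Most junction and surface proteins of endothelium were also level. Cldn5, the main claudin of endothelial tight junctions, was at 0.995 in the control, 1.0 in Nanos2-/- Stra8+/- and 0.928 in the column labelled Nanos2-/- Stra8-/-. Emcn, a sialomucin of venous and capillary endothelium, was at 1.01, 0.962 and 0.948, and Eng, the endoglin co-receptor for TGF-beta family ligands, at 1.0, 0.970 and 0.987. The 3 columns of each of these genes lay within 10% of one another.

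Cdh5 encodes VE-cadherin, the adherens junction protein that defines endothelium. Its 2 probes were at 0.991 and 0.951 in the control, 1.02 and 0.946 in Nanos2-/- Stra8+/-, and 1.16 and 1.12 in the column labelled Nanos2-/- Stra8-/-. Both probes thus placed the third column highest, by 0.22 and 0.23 over the control, a shift close to the 0.19 of all genes. Esam, an endothelial adhesion molecule, had log2 differences of 0.06, 0.18 and 0.11 in the 3 comparisons, each near the median of all genes.

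Cd34, a sialomucin of endothelium and blood progenitors, was at 1.0, 0.948 and 1.27. Robo4, a guidance receptor that stabilises vessels, was at 0.968, 1.0 and 1.24. For both, the column labelled Nanos2-/- Stra8-/- stood above the other two, by 1.34-fold and 1.24-fold over Nanos2-/- Stra8+/-. Plvap, the diaphragm protein of fenestrated endothelium, was lowest in Nanos2-/- Stra8+/-, at 0.872 against 1.15 in the control and 0.998 in the column labelled Nanos2-/- Stra8-/-. Cd34, Robo4 and Plvap rest on 1 probe each.

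Pecam1 was the member with the highest difference under Nanos2 loss. It encodes CD31, an adhesion molecule of endothelium, platelets and leukocytes that fetal germ cells of the mouse gonad also carry. Its first probe was at 0.764 in the control, 1.02 in Nanos2-/- Stra8+/- and 1.09 in the column labelled Nanos2-/- Stra8-/-. The second was at 0.262, 0.417 and 0.424 and is among those below 0.7 throughout. On both probes the control was the low column and the null columns were close to each other. The gene's difference was 0.54, or 1.46-fold higher, with Nanos2 loss and 0.61, or 1.52-fold higher, in combined loss, with 0.06 between the null columns. At 0.54 it stood above 93.7% of all genes and, at 0.61, above 88.3%. It kept this direction under each scaling of the columns that was tried for both comparisons with the control, but the 1.5-fold call in combined loss was lost once the columns were centred, at a log2 difference of 0.52, and without the probe below 0.7, at 0.51. The other endothelial junction gene with 2 probes, Cdh5, differed by 0.02 with Nanos2 loss. Beside Pecam1, 9 germ cell genes had a median of 0.26 with Nanos2 loss and ranged from -0.75 to 0.82. Of these genes, 2 were past 1.5-fold in each direction, beside 5.7% of all genes higher and 6.79% lower. Their part in the Pecam1 difference was not tested.

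Of the 3 transcription factors, Erg had the highest difference in both comparisons with the control and the lowest, by a narrow margin, with Stra8 loss on the Nanos2-null background, at 0.23 beside 0.25 for Sox17 and for Sox18. It encodes an ETS factor that maintains endothelial identity. One probe was at 0.801 in the control, 1.0 in Nanos2-/- Stra8+/- and 1.15 in the column labelled Nanos2-/- Stra8-/-, and the other at 0.696, 1.0 and 1.21. The order of the columns was the same on both probes. The gene was 1.34-fold higher with Nanos2 loss and 1.58-fold higher in combined loss. Centring the columns on their medians left a log2 difference of 0.57 in combined loss, just under the 1.5-fold mark, and quantile normalization left 0.52. The call was also lost with the probe of highest mean value and with RefSeq mRNA probes only.

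Sox17 and Sox18, SOX factors of arterial and lymphatic endothelial development, lay near 0 in one comparison and above it in the other. With Nanos2 loss Sox17 differed by 0.08 and Sox18 by -0.04. In combined loss they differed by 0.33 and 0.21, beside 0.19 for all genes. All 4 probes of Sox17 put the columns in the same order, control lowest and the column labelled Nanos2-/- Stra8-/- highest, with differences in combined loss from 0.18 to 0.50. All 3 transcription factors were 0.23 to 0.25 higher in the column labelled Nanos2-/- Stra8-/- than in Nanos2-/- Stra8+/-, beside 0.17 for all genes.

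Vwf gave the largest difference of any member. It encodes von Willebrand factor, the clotting protein made by endothelial cells and by megakaryocytes, the precursors of platelets. Its 3 probes were at 1.79, 1.85 and 0.656 in the control column. In Nanos2-/- Stra8+/- they were at 0.871, 0.906 and 0.402, and in the column labelled Nanos2-/- Stra8-/- at 0.974, 0.957 and 0.340. Every probe had its highest value in the control column, which stood apart from both null columns. The gene was 2.04-fold lower with Nanos2 loss and 1.93-fold lower in combined loss, with single probes from 1.63-fold to 2.05-fold lower. Vwf stayed at least 1.5-fold lower than in the control in both comparisons under each alternative processing, but its 2-fold call with Nanos2 loss was lost with the mean of probes, at -0.92, with a pseudocount of 0.1, at -0.96, and with quantile normalization, at -0.88. Between the null columns the gene differed by 0.08, and the sign of that difference turned with the scaling. Both comparisons draw on the same control column, so they are not separate observations of the high control value.

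Among genes with 2 or more probes, Vwf was the only one of 16 members at least 1.5-fold lower by every probe, in Nanos2 loss as in combined loss. Over all 8511 such genes 1.72% were so in Nanos2 loss and 1.41% in combined loss. None of the 16 members was at least 1.5-fold higher by every probe, beside 0.987% and 2.74% of all such genes. With Stra8 loss on the Nanos2-null background no member passed by every probe in either direction, beside 0.717% of such genes higher and 0.223% lower. In the gene-level ordering Vwf lay above 3.05% of all genes with Nanos2 loss and above 3.13% in combined loss.

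The other secreted or enzymatic markers lay near 1 in every column. Egfl7, a secreted angiogenic factor of endothelium, was at 1.03, 0.970 and 0.988 in the control, Nanos2-/- Stra8+/- and the column labelled Nanos2-/- Stra8-/-. Nos3, the endothelial nitric oxide synthase, was at 1.03, 1.02 and 0.943. Each of these genes varied by less than 10% over the columns where Vwf varied about 2-fold. Of 5 measured megakaryocyte genes, all lay below 0 with Nanos2 loss, with a median of -0.17 and a range from -0.51 for Ppbp, a platelet chemokine, to -0.05 for Gp1bb, a subunit of the platelet receptor for von Willebrand factor. In combined loss their median was 0.02 and they ranged from -0.05 to 0.23. Of all 19532 genes, 7943 lay below 0 with Nanos2 loss. Among the megakaryocyte genes, Itgb3 had 2 probes, at -0.49 and 0.25 with Nanos2 loss, and the others had 1 probe each. The part of the megakaryocyte genes in the Vwf difference was not tested.

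**Figure D3:**
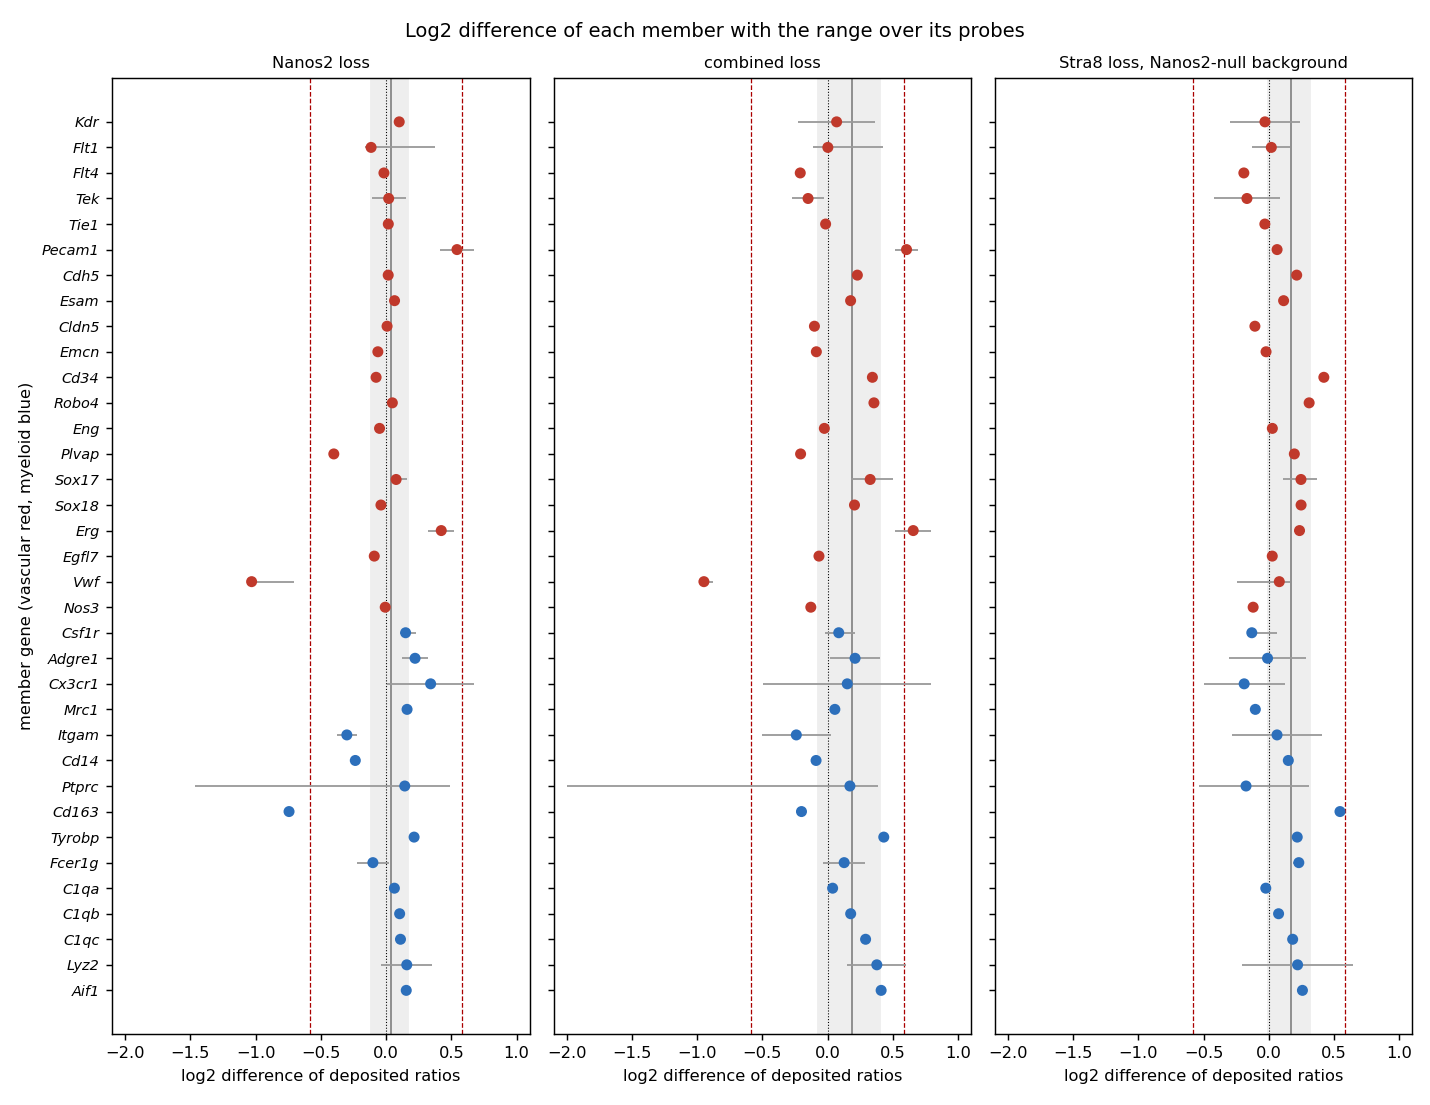
Log2 difference of each of the 35 members (points, median over probes) in the 3 comparisons, with bars for the range over a gene's probes, vascular genes in red and myeloid genes in blue. Dashed red lines mark 1.5-fold, the grey band the interquartile range of all genes and the grey line their median. Vwf lies left of the 1.5-fold line in both comparisons with the control, Cd163 in the first, and Pecam1 and Erg lie right of it in the second.

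The complement C1q genes gave like differences with Nanos2 loss and parted further in combined loss. C1qa, C1qb and C1qc encode the 3 chains of C1q, the recognition protein of the classical complement pathway, which tissue macrophages produce, and RefSeq places them next to one another on mouse chromosome 4. C1qa was at 0.981 in the control, 1.03 in Nanos2-/- Stra8+/- and 1.01 in the column labelled Nanos2-/- Stra8-/-. C1qb was at 0.931, 1.0 and 1.05, and C1qc at 0.906, 0.977 and 1.11. In all 3 the control was the low column of the deposited values. For C1qa this turned with the scaling of the columns, as its difference of 0.04 in combined loss became -0.05, -0.12 and -0.04 after centring on the median, centring on the 75th percentile and quantile normalization. Their differences with Nanos2 loss were 0.06, 0.10 and 0.11, a range of less than 0.05 over genes measured by separate probes. In combined loss they were 0.04, 0.18 and 0.29, on both sides of the 0.19 of all genes.

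The receptors that define macrophages varied little by the gene's median. Csf1r, the receptor for CSF1 and IL-34 on which macrophages depend, had 3 probes with differences of 0.15, 0.23 and 0.11 with Nanos2 loss. In combined loss they were 0.21, 0.09 and -0.02. Adgre1, which encodes the F4/80 antigen of mouse macrophages, had 2 probes, at 0.894 and 0.345 in the control, 0.971 and 0.432 in Nanos2-/- Stra8+/-, and 1.18 and 0.350 in the column labelled Nanos2-/- Stra8-/-. Both Adgre1 probes were lowest in the control, but the second had nearly the same value in the column labelled Nanos2-/- Stra8-/-. Mrc1, the mannose receptor CD206 of resident macrophages and of some endothelium, was at 0.972, 1.09 and 1.01.

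Cd163 was the only myeloid member past 1.5-fold by the median over a gene's probes. It encodes the haemoglobin scavenger receptor of resident macrophages. Its single probe was at 1.09 in the control, 0.652 in Nanos2-/- Stra8+/- and 0.951 in the column labelled Nanos2-/- Stra8-/-. Here the column of the middle genotype was the low one and the other two were nearer to each other. Cd163 was 1.68-fold lower with Nanos2 loss, 1.15-fold lower in combined loss and 1.46-fold higher with Stra8 loss on the Nanos2-null background. Mrc1 and Csf1r, which mark the same resident cells, had differences of 0.16 and 0.15 with Nanos2 loss, while Itgam and Cd14 were at -0.30 and -0.24. Of the 8 myeloid receptors and surface proteins, 5 lay above 0 in that comparison and 3, Cd163 among them, below it. Over all 19532 genes, 11589 lay above 0 and 7943 below it.

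Cx3cr1 and Ptprc showed how far probes of 1 gene can part. Cx3cr1, the fractalkine receptor of monocytes and tissue macrophages, had a probe at 0.669 in the control, 1.07 in Nanos2-/- Stra8+/- and 1.16 in the column labelled Nanos2-/- Stra8-/-. Its other probe was at 1.07, 1.07 and 0.758. The first probe was 1.74-fold higher and the second 1.41-fold lower in combined loss, so no direction can be given for Cx3cr1.

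Ptprc encodes CD45, the phosphatase found on all leukocytes. One of its 4 probes was at 1.43 in the control, 0.517 in Nanos2-/- Stra8+/- and 0.357 in the column labelled Nanos2-/- Stra8-/-, 2.76-fold and 3.99-fold lower than in the control. Another near 1 was at 0.903, 1.04 and 1.13, and the other two lay below 0.7 throughout, with differences of 0.49 and 0.08 with Nanos2 loss. Only 1 of the 4 probes was thus lower in the null columns. The median over the probes was 0.14 with Nanos2 loss and 0.17 in combined loss. Its sign rested on the pair of probes below 0.7. Without them Ptprc was 1.55-fold lower with Nanos2 loss and 1.79-fold lower in combined loss, at -0.63 and -0.84, and the mean of all 4 probes was -0.17 and -0.32. Quantile normalization turned the sign in combined loss as well, to -0.15. No direction can thus be given for Ptprc. The probe with the large difference is annotated to the same Ptprc transcript as 2 of the others.

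Itgam and Cd14 were lower without Nanos2 by less than 1.5-fold. Itgam encodes CD11b, the integrin chain of myeloid cells, and its 2 probes were at 0.739 and 1.16 in the control, 0.568 and 0.994 in Nanos2-/- Stra8+/-, and 0.753 and 0.817 in the column labelled Nanos2-/- Stra8-/-. Both were below the control in Nanos2-/- Stra8+/-, and only the second was in the other null column. Cd14, the lipopolysaccharide co-receptor, was at 1.09, 0.924 and 1.02 by 1 probe.

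The signalling adaptors and intracellular markers were mostly higher in the column labelled Nanos2-/- Stra8-/-. Tyrobp, the DAP12 adaptor of myeloid receptors, was at 0.861 in the control, 0.998 in Nanos2-/- Stra8+/- and 1.16 in the column labelled Nanos2-/- Stra8-/-. Aif1, the calcium-binding IBA1 protein of macrophages, gave nearly the same series on 2 probes, at 0.917, 1.0 and 1.19 on one and at 0.880, 1.0 and 1.2 on the other. For Tyrobp and Aif1 the control was lowest and the column labelled Nanos2-/- Stra8-/- highest, with log2 differences in combined loss of 0.43 and 0.41, beside 0.19 for all genes. Fcer1g, the Fc receptor gamma chain, had probes with differences of 0.29 and -0.04 in combined loss. Lyz2, the lysozyme of macrophages and granulocytes, had probes with differences of 0.15 and 0.60.

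Over the 15 myeloid genes, the control column held the lowest value of 10 and the column labelled Nanos2-/- Stra8-/- that of 1. Part of this order lies in the scale of the columns, since with the columns centred on their medians the control was lowest for 7 and the column labelled Nanos2-/- Stra8-/- for 4. Over the 20 vascular genes the control was lowest for 7 as deposited and for 4 after centring, and highest for 8 and for 11. Which column was lowest or highest was not counted over all genes. As deposited, 11589 of all 19532 genes lay above the control with Nanos2 loss and 13532 in combined loss. The sign of the difference turned under at least 1 scaling for 7 of 35 members with Nanos2 loss, and for 9 each in combined loss and with Stra8 loss on the Nanos2-null background. Such turns were not counted over all genes, so whether the members stand apart in this is not known.

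Of the 16 members with 2 or more probes, 6 had probes of opposite sign with Nanos2 loss and 7 in combined loss, or 37.5% and 43.8%. Over all genes with 2 or more probes the shares were 40.7% and 44.6%. In these comparisons with the control the members' share was near that found across the array. With Stra8 loss on the Nanos2-null background it was higher, at 10 of the 16 members or 62.5%, beside 46.1% of all such genes.

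Further genes of the same cells were listed apart from the members. Of 24 further endothelial genes, 0 were past 1.5-fold with Nanos2 loss and their median was 0.03. In combined loss 2 were higher by 1.5-fold or more, and the median was 0.23, while with Stra8 loss on the Nanos2-null background 1 was and the median was 0.25. Over all genes 5.7%, 12.5% and 6.67% were higher by that much in the 3 comparisons, and 6.79%, 6.28% and 2.82% lower. Against the median of all genes these medians lay at -0.0055, 0.04 and 0.08, unlike the vascular members, which lay at -0.19 in combined loss and -0.12 with Stra8 loss on the Nanos2-null background. The 2 genes in combined loss were Apln, the apelin peptide of sprouting endothelium, at 1.69-fold, and Esm1, a tip cell proteoglycan, at 1.67-fold. Apln had probes that disagreed, from -0.28 to 0.77 on the log2 scale. Of 13 arterial and venous genes none passed 1.5-fold with Nanos2 loss, and in combined loss 1 did, the kinase gene Bmx at 1.75-fold higher. The 12 pericyte and smooth muscle genes held 0 past 1.5-fold in either, with medians of 0.04 and 0.12.

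Of 28 further macrophage genes, 1 was higher by 1.5-fold or more and 0 lower with Nanos2 loss, where the median was 0.09. That gene was Sall1, which besides microglia marks kidney progenitors, at 1.98-fold by 1 probe. In combined loss 3 of the 28 were at least 1.5-fold higher and 0 lower, and the median was 0.29. Over all genes 5.7% were higher and 6.79% lower by that much with Nanos2 loss, with a median of 0.04. In combined loss the shares over all genes were 12.5% and 6.28%, and the median was 0.19. Cybb, the phagocyte NADPH oxidase subunit, was 1.85-fold higher there by the median of its 2 probes, which gave 0.45 and 1.32. Spi1, which encodes the myeloid factor PU.1, was 1.43-fold higher with Nanos2 loss and 1.18-fold lower in combined loss by 1 probe.

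Some lists of other blood cells and of lymphatic vessels lay further from the median of all genes. The 6 mast cell genes had a median of 0.77 with Nanos2 loss, with 4 at least 1.5-fold higher, and of 0.54 in combined loss, with 2 at least 1.5-fold higher. Over all genes the medians were 0.04 and 0.19, and 5.7% and 12.5% were higher by that much. Cma1, a mast cell chymase, was at 0.776 in the control, 1.57 in Nanos2-/- Stra8+/- and 1.08 in the column labelled Nanos2-/- Stra8-/-, and Tpsb2, a mast cell tryptase, at 0.667, 1.44 and 0.981. The control was the low column for both. Fcer1g, whose product serves in the mast cell IgE receptor as well as in macrophages, differed by -0.10 with Nanos2 loss. The 9 granulocyte and monocyte genes had a median of 0.16 with Nanos2 loss, with 6 above 0 and 1 past 1.5-fold, which was Camp, a cathelicidin, at 1.76-fold lower. In combined loss their median was -0.08, with 4 above 0 and 3 at least 1.5-fold lower, among them Elane, neutrophil elastase, at 2.06-fold. For comparison, 11589 of the 19532 genes lay above 0 with Nanos2 loss and 13532 in combined loss. Genes lower by 1.5-fold or more made up 6.79% and 6.28% of the 19532 in the same order. Camp and Elane have 1 probe each. The 4 lymphatic genes had medians of -0.0043 and 0.58. The chemokine gene Ccl21a was 2.78-fold and 2.15-fold higher in Nanos2 loss and combined loss by 1 probe. Lyve1, a receptor of lymphatic endothelium and macrophages, differed by -0.11 and 0.05, but its 2 probes gave -0.53 and 0.64 in combined loss. Prox1, the lymphatic master regulator, was 2.19-fold higher in combined loss, with probes from 0.27 to 2.84.

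**Figure D4:**
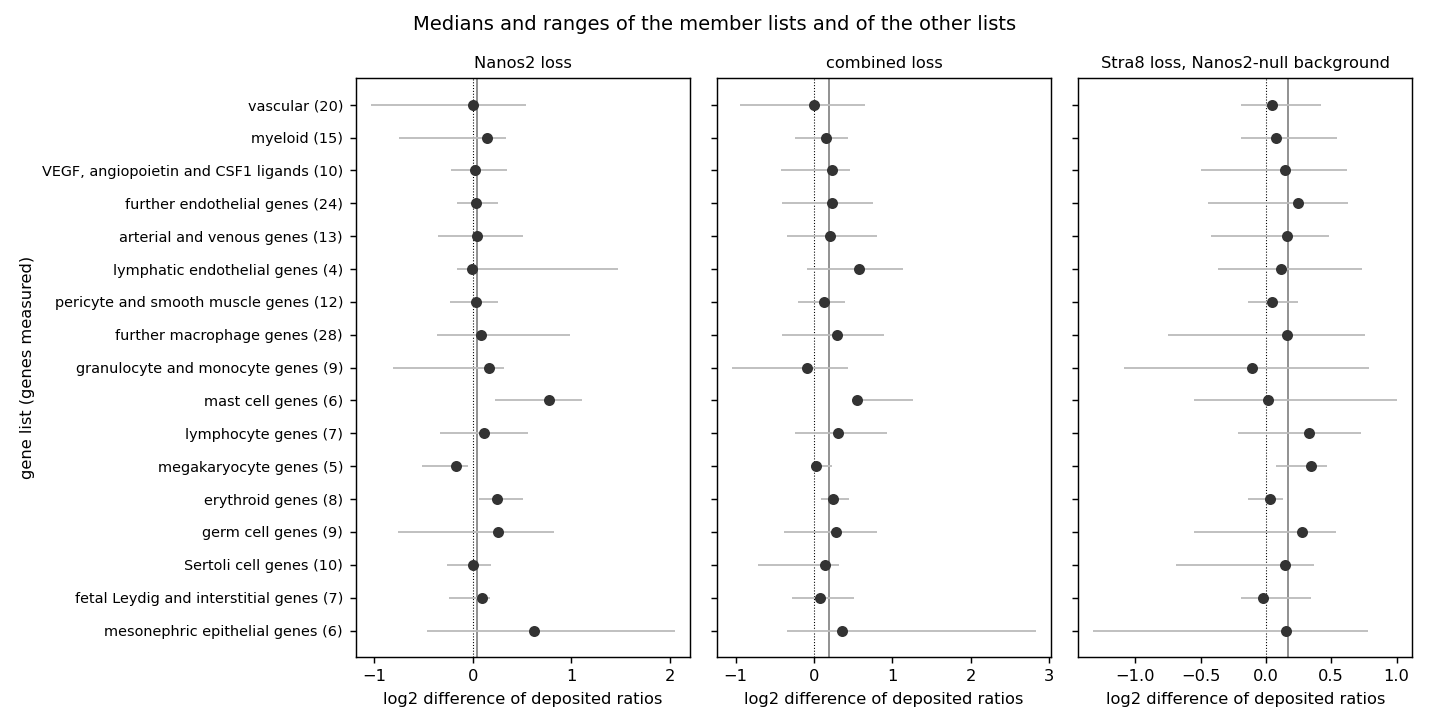
Median (point) and range over genes (bar) of the log2 difference for the vascular and myeloid members and for 15 other gene lists in the 3 comparisons, with the grey line at the median of all genes and the number of genes measured in brackets. The vascular and myeloid medians lie near the grey line in the first panel, where the mast cell and mesonephric medians lie at 0.77 and 0.62.

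Other cell types of the gonad are set beside these values. The 10 Sertoli cell genes had medians of -0.00061 with Nanos2 loss and 0.14 in combined loss, and the 7 fetal Leydig and interstitial genes medians of 0.09 and 0.07. The 8 erythroid genes, which follow the blood held in the vessels, had medians of 0.25 and 0.24 and ranged from 0.07 to 0.51 with Nanos2 loss. The vascular median of -0.00013 thus lay below the erythroid one in the same columns. The 7 lymphocyte genes had medians of 0.11 and 0.30, and the 6 mesonephric epithelial genes medians of 0.62 and 0.35.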

How the data were processed

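The authors deposited 1 table of linear ratios, with a column for each genotype. Per the submitters' processing notes, Agilent Feature Extraction 9.5 was used, on Cy3-labelled cRNA made from 0.20 µg of total RNA, per the labels' protocols. Normalization, scaling between arrays and the combination of replicates 1 and 2 are not given in the sources used here.

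Of 41267 entries, 93 control spots were left out. The platform's annotation gave 1 symbol for 32664 probes, several for 45 (left unnamed) and none for 8465. Gene identifiers of 32524 matched RefSeq genes of GRCm38.p6, with 0 symbols changed. Differences were taken between log2 ratios, with no pseudocount and no filter on low values, and each gene took the median over its probes. A fold of at least 1.5, or at least 2, counted as a difference. Groups of 1 column allow no test, and array depth is not defined. Groups followed the genotype labels. The text could name Nanos2, Stra8, all members and, for each other list, the 3 genes with the largest absolute difference per comparison. Gp1bb was named after its values were seen. Members and lists were chosen with earlier results of these data known. Alternatives covered the probe summary, scaling, pseudocount (0.1), low values and list membership, and 1 more (probes with RefSeq mRNA accessions) was added after seeing the data. Counting was tested on simulated data. Python 3.11.15, numpy 2.4.6, pandas 2.3.3 and matplotlib 3.10.9 were used.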

Additional observations from a re-analysis of the deposited data

How the results depend on the processing

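With 1 column per group, no replicate spread exists to read the movement of a median against. Over the 10 alternatives the vascular median ranged from -0.05 to 0.02 with Nanos2 loss, from -0.16 to 0.03 in combined loss, and from -0.12 to 0.09 with Stra8 loss on the Nanos2-null background. The myeloid median ranged from 0.09 to 0.15, from -0.0056 to 0.19, and from -0.09 to 0.17 in that order, and the gap between the sets from -0.16 to -0.10, from -0.18 to -0.08, and from -0.14 to 0.03. Only the myeloid median with Nanos2 loss and the gap in both comparisons with the control kept their sign throughout. The counts of members past a fold are small and depended on the setting. At 2-fold with Nanos2 loss the count of 1, which is Vwf, became 0 with the mean of probes, quantile normalization, log2(value + 0.1) or the defining members only, a set that leaves Vwf out. At 2-fold in combined loss the count of 0 became 1 when columns were centred on the median or the 75th percentile. At 1.5-fold in combined loss the count of 3 became 1 with the probe of highest mean value, with either centring, with quantile normalization, with the defining members only, or with RefSeq mRNA probes only. At 1.5-fold with Nanos2 loss the count of 2 became 0 with the defining members only and 3 without probes below 0.7, where Ptprc passed the mark as lower. In combined loss that setting gained Ptprc and lost Pecam1. With Stra8 loss on the Nanos2-null background the count of 0 became 1 with quantile normalization, which is Cd163 at 1.53-fold higher. The cause was not tested. No member past 1.5-fold by the median over its probes turned its sign in that comparison under any alternative that measured it. No paired analysis was possible because each genotype has a single column. The main limits are that arrays were combined before deposit, that brightness is unknown, and that probes of 1 gene often disagreed.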
